A study of Mus musculus with 40 samples.

Results

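The genes described here are those of MHC class II antigen presentation and of T cell costimulation that a macrophage carries on its surface, with the factor that switches class II on. They were chosen by name: the class II chains H2-Aa, H2-Ab1 and H2-Eb1, the invariant chain Cd74, the class II transactivator Ciita, and Cd40, Cd80, Cd86, Cd274 and Icosl. All 10 were found among the 52029 identifiers with a symbol, out of 57010 gene identifiers in the table, and all 10 passed the filter on low counts in every comparison. RNA was measured by QuantSeq, which counts tags at the 3′ end of polyadenylated transcripts, in macrophages grown from mouse bone marrow in L929-conditioned medium, a source of M-CSF. The cells were stimulated with 500 ng/ml of ultrapure LPS from Salmonella minnesota, a bacterial ligand of TLR4, and sampled at 0, 3, 6, 12 and 24 h. The genotype labelled OtulinFL/FL, called WT here, has a floxed Otulin gene on both chromosomes and no Cre. The genotype labelled OtulinFL/FL LysMCreTg/WT, called KO here, carries the same floxed alleles and a Cre driven by the LysM promoter, which is active in myeloid cells. Each genotype and time had 4 biological replicates, 40 libraries in all, and there was no group with Cre and an unfloxed Otulin, so loss of Otulin and presence of Cre cannot be told apart.

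As background, class II molecules are pairs of an alpha and a beta chain that show peptides from endosomes to CD4+ T cells. The invariant chain CD74 holds the empty pair on its way to the endosome, where cathepsins trim it and H2-DM exchanges its last fragment for a peptide. CIITA binds no DNA itself and acts through a complex of RFX, CREB and NF-Y proteins that sits on the X and Y boxes of class II promoters. CD80 and CD86 bind CD28 and CTLA-4 on T cells, ICOS ligand binds ICOS, PD-L1 (the product of Cd274) binds the inhibitory receptor PD-1, and CD40 receives CD40 ligand from T cells. OTULIN removes linear ubiquitin chains, which carry signals from TLR4, CD40 and the TNF receptor to NF-κB.

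Promoter sequences of 5 of the 10 genes were present in the RefSeq promoter table (GRCm38.p6). Parts of those of H2-Aa, H2-Eb1 and Icosl are shown, because the class II chains moved together under LPS and Icosl was the 1 gene of the set called between genotypes, with that of H2-DMb1, a chain of the peptide exchanger. Each run is read 5′ to 3′ along the gene and lies wholly before the annotated start. Capitals mark exact matches on either strand to the Y box core GATTGG, to the X box letters AACTGATG, or to the cAMP response element TGACGTCA (the X2 box).
H2-Aa, chr17:34287824-34287933, minus strand: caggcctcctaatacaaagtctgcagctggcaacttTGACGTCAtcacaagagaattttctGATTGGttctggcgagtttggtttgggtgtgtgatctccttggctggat
H2-Eb1, chr17:34305757-34305866, plus strand: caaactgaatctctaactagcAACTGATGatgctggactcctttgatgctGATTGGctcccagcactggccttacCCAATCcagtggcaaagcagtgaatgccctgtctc
H2-DMb1, chr17:34153081-34153190, plus strand: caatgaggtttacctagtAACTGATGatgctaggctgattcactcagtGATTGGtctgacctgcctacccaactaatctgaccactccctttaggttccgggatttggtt
Icosl, chr10:78069178-78069287, plus strand: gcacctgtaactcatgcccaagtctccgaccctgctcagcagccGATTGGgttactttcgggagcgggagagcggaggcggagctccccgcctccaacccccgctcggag

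Within the 250 bases before the start, GATTGG occurred in 14.6% of all 32851 promoters of the table, AACTGATG in 0.676% and TGACGTCA in 1.55%, with both strands searched. H2-Eb1 and H2-DMb1 held both the X box letters and GATTGG, and in H2-DMb1 they stood at 92 to 85 and 62 to 57 bases before the start. In H2-Eb1 the X box letters stood at 89 to 82 bases before the start, and GATTGG was found at 60 to 55 bases before the start and, on the other strand, at 35 to 30 bases before it. H2-Aa held TGACGTCA at 74 to 67 bases and GATTGG at 49 to 44 bases before the start. Icosl held a GATTGG at 146 to 141 bases before the start, and neither of the other motifs in capitals. Of the promoters searched but not shown, those of Cd80 and Cd274 held none of these motifs. For H2-DMa, the partner chain of H2-DMb1, 1 promoter held GATTGG at 199 to 194 bases before the start and another did not. Neither held the X box letters or TGACGTCA. The same window was also searched for a kappa B motif of NF-κB and for the interferon motifs GAS and ISRE. These occurred in 1.21%, 7.02% and 2.98% of all promoters of the table, and in none of the promoters named here, shown or not. Their absence covers only the patterns searched, within the 250 bases before the start. The marked motifs did not overlap one another. A match shows only that the letters are there.

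Each library held between 3615155 and 6829303 counts (median 4471933), and levels are given as CPM, counts scaled by library size. All 7 macrophage markers had counts in every group, with a summed level of 3683 to 7627 CPM. The B cell markers, a cell type rich in class II, summed to between 0.222 and 2.76 CPM, with 6 of 7 below 1 CPM in every library and Blk at 0 throughout. Of 10 dendritic cell markers, Flt3 stayed below 1 CPM, Xcr1, Cd209a and Dpp4 reached at most 1.12, 1.31 and 1.43 CPM, and Clec9a, Zbtb46, Ccl17, Ccr7 and Ccl22 at most 4.72, 7.44, 14.8, 18.6 and 44.1 CPM. Itgax, which encodes CD11c and is found on dendritic cells and on some macrophages, was the most abundant of that list, at 13.1 to 105 CPM. Otulin itself was not called between genotypes at any time, but its ranges were apart at 3 times: it was lower in KO at 3 h (31.0 to 33.2 CPM against 35.6 to 46.9, adjusted p = 0.0564) and 6 h (28.1 to 33.3 against 35.4 to 41.7, adjusted p = 0.291), and higher in KO at 24 h (45.3 to 52.1 against 27.7 to 37.2, adjusted p = 0.0704). Ranges were apart, in either direction, for 7.33% of all genes at 6 h and 4.47% at 24 h, and the share at 3 h is not given here. Whether the 3′ tags of Otulin lie outside the deleted part was not tested, and tags outside it would not check the genotype. Replicate 3 of KO and replicate 4 of WT had the low Xist and high Y-linked counts of a male at all 5 times. The mouse strain is not given in the sources used here, and since class II genes differ in sequence between strains, how well their tags matched the reference was not tested. In bulk RNA, fewer cells that express a gene and less RNA per cell cannot be told apart.

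The class II chains rose slowly, over the first 12 h or longer. H2-Aa, the alpha chain of the I-A molecule, read 22.4, 24.8, 36.4 and 29.8 CPM in the WT libraries at 0 h and 122, 104, 110 and 96.8 CPM at 24 h. In KO it read 22.6, 16.9, 24.7 and 28.7 CPM at 0 h and 84.4, 76.7, 85.2 and 129 CPM at 24 h. Every library at 24 h was above every library at 0 h in both genotypes. The rise was 1.95 ± 0.12 on the log2 scale in WT (SE, n = 4 per group; 3.88-fold; edgeR quasi-likelihood adjusted p = 1.1e-13) and 2.02 ± 0.20 in KO (4.04-fold; adjusted p = 2.3e-08).

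H2-Ab1, the beta chain of I-A, read 17.4, 25.5, 26.5 and 29.0 CPM in WT at 0 h and 133, 127, 126 and 107 CPM at 24 h. In KO it went from 18.1, 12.1, 20.3 and 20.1 CPM to 110, 92.7, 96.5 and 157 CPM. Its rise at 24 h was 5.09-fold in WT (log2 2.35 ± 0.14) and 6.47-fold in KO (2.69 ± 0.22), and no 24 h library overlapped the 0 h libraries. H2-Eb1, the beta chain of I-E, had the same direction with a later course: it averaged 15.8 ± 3.39 CPM at 0 h, 29.5 ± 3.42 at 6 h and 69.1 ± 11.0 at 24 h in WT, and 11.9 ± 3.97, 21.6 ± 3.82 and 58.8 ± 21.1 in KO (SD, n = 4). Its 24 h rise was 4.43-fold in WT (2.15 ± 0.13) and 5.00-fold in KO (2.32 ± 0.27). Cd74, the invariant chain, reached its highest mean at 12 h rather than 24 h in both genotypes. It averaged 9.21 ± 2.21 CPM at 0 h and 46.8 ± 8.86 at 12 h in WT, and 8.32 ± 2.78 and 46.9 ± 19.5 in KO, a 5.12-fold and a 5.62-fold rise (log2 2.36 ± 0.15 and 2.49 ± 0.34).

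**Figure D1:**
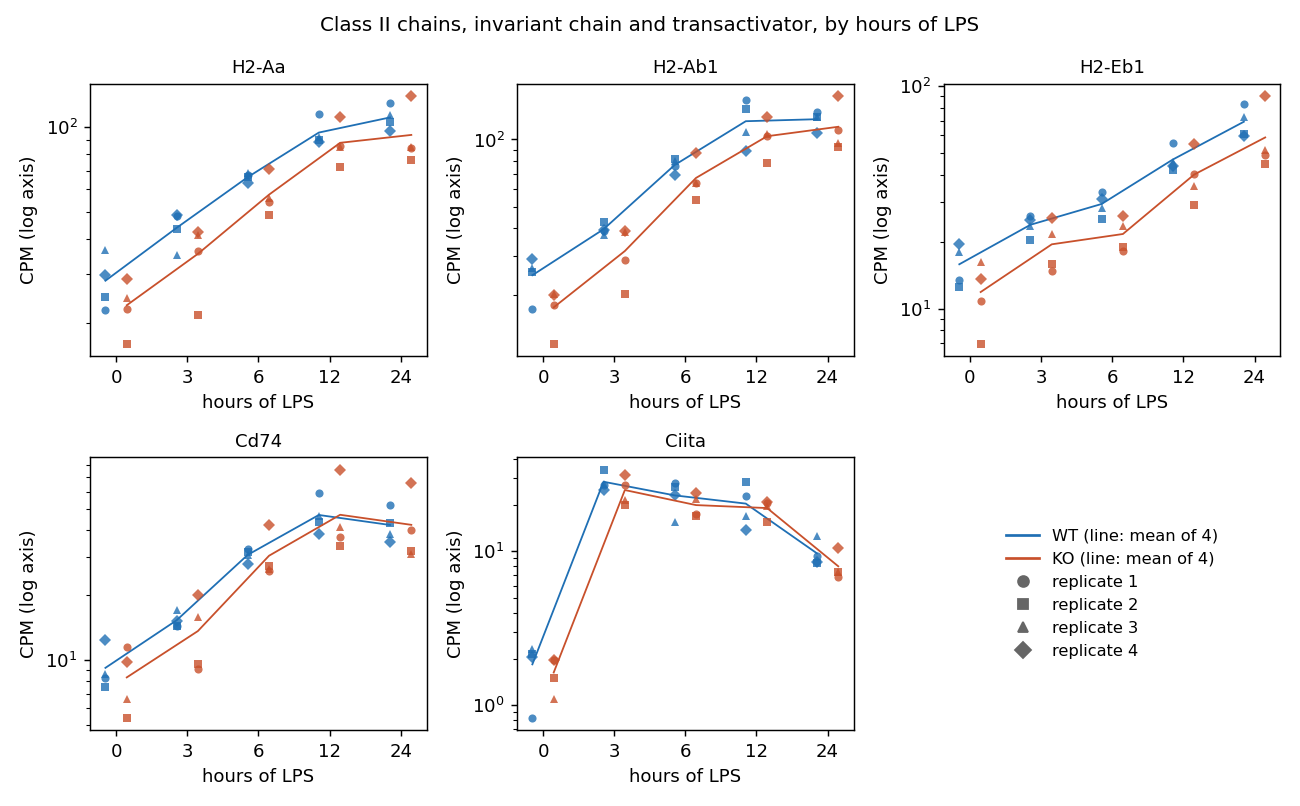
Level (CPM, log axis) of H2-Aa, H2-Ab1, H2-Eb1, Cd74 and Ciita in each of the 40 libraries against hours of LPS, with WT in blue, KO in orange, a symbol per replicate number and a line through the mean of 4. The 3 chains climb to 12 h, after which a rise was called for H2-Eb1 in WT alone, Cd74 has its highest mean at 12 h, and Ciita is highest at 3 h, at 28.4 CPM in WT and 25.1 CPM in KO.

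Early, the class II changes were small. At 3 h H2-Aa had risen by 0.67 ± 0.12 on the log2 scale in WT and by 0.62 ± 0.21 in KO, with overlapping ranges in both genotypes. H2-Ab1 had risen by 0.73 ± 0.15 in WT (adjusted p = 0.000253) and 0.86 ± 0.23 in KO (adjusted p = 0.00424) with no overlap, as had H2-Eb1 (0.62 ± 0.15) and Cd74 (0.76 ± 0.17) in WT. The KO calls at 3 h for H2-Aa (adjusted p = 0.0185) and H2-Eb1 (0.74 ± 0.28, adjusted p = 0.0376) were not made without KO replicate 1 (adjusted p = 0.118 and 0.0953) or without KO replicate 3 (0.114 and 0.0676), and that of H2-Eb1 was not made without KO replicate 2 (0.0951). Cd74 in KO at 3 h read 9.09, 9.58, 15.8 and 20.1 CPM against 11.4, 5.41, 6.63 and 9.80 at 0 h and was not called (0.74 ± 0.37, adjusted p = 0.106). With DESeq2 in place of edgeR it was called (0.76, adjusted p = 0.0382).

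The transactivator had another time course. Ciita read 0.83, 2.17, 2.32 and 2.07 CPM in WT at 0 h, from 6 to 14 counts a library, and 27.1, 33.9, 27.4 and 25.1 CPM at 3 h. In KO it read 1.96, 1.51, 1.1 and 1.96 CPM at 0 h and 27.0, 20.0, 21.7 and 31.5 CPM at 3 h. Each 3 h library lay far above the 0 h libraries, and the rise was 4.00 ± 0.26 on the log2 scale in WT (16.0-fold, adjusted p = 3.8e-12) and 3.91 ± 0.22 in KO (15.0-fold, adjusted p = 8.2e-14). It was not called between 3 and 6 h or between 6 and 12 h in either genotype. Between 12 and 24 h it fell to 9.31, 8.44, 12.6 and 8.53 CPM in WT and 6.85, 7.33, 7.32 and 10.5 CPM in KO. That change was -1.02 ± 0.22 in WT (adjusted p = 0.000664) and -1.24 ± 0.18 in KO (adjusted p = 9.1e-06), with no overlap of the libraries. At 24 h Ciita was still 5.47-fold above 0 h in WT and 4.84-fold in KO. In the last 12 h, while Ciita fell, H2-Eb1 rose in WT (0.57 ± 0.13, adjusted p = 0.000741). In KO the difference was 0.57 ± 0.25, not called (adjusted p = 0.0779), but was called with a replicate block (0.00224), in 1 fit of all 40 libraries (0.0294) and with no filter on low counts (0.000301). H2-Aa and H2-Ab1 were not called in either genotype in that step.

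Across the 40 libraries, log2(CPM + 1) of H2-Aa and H2-Ab1 had a Pearson r of 0.986, and that of Ciita and Cd40 0.956, whereas Ciita and H2-Aa had 0.485. Icosl and Cd80 had 0.805, and Icosl and H2-Ab1 -0.06. These values describe libraries that share the 5 times and are not tests.

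Cd40, the receptor for CD40 ligand, had the steepest rise of the set. It read 4.70, 6.16, 6.29 and 5.11 CPM in WT at 0 h and 1210.1, 1063, 1083 and 1049 CPM at 6 h. In KO it read 6.38, 5.41, 5.34 and 4.99 CPM at 0 h and 1335, 1142, 1289.8 and 1208 CPM at 6 h. The 6 h rise was 7.66 ± 0.15 on the log2 scale in WT (203-fold, adjusted p = 1.2e-23) and 7.81 ± 0.13 in KO (224-fold, adjusted p = 7.3e-24). At 3 h Cd40 averaged 632 ± 87.8 CPM in WT and 591 ± 34.0 in KO, already 117-fold and 105-fold above 0 h. It then fell by 1.06 on the log2 scale from 6 to 12 h and by 1.63 from 12 to 24 h in WT, and by 0.88 and 1.95 in KO, all called. At 24 h the WT libraries read 194, 149, 185 and 159 CPM and the KO libraries 171, 188, 176 and 170 CPM, still 31.3-fold and 31.5-fold above 0 h.

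Cd86, which encodes B7-2, rose more slowly than Cd40 and stayed high through 12 h. The WT libraries read 21.4, 17.7, 25.0 and 26.7 CPM at 0 h, 134, 132, 124 and 154 at 6 h and 95.2, 79.3, 69.6 and 77.5 at 24 h. The KO libraries read 21.3, 17.6, 16.0 and 17.6 CPM at 0 h, 156, 134, 178 and 156 at 6 h and 88.1, 86.4, 114 and 86.1 at 24 h. Stimulated libraries were above all unstimulated ones at each of these times. The rise at 6 h was 6.13-fold in WT (2.62 ± 0.14) and 8.59-fold in KO (3.10 ± 0.12), and at 24 h it was 3.57-fold and 5.11-fold. From 12 to 24 h Cd86 fell by 0.66 on the log2 scale in WT and by 0.62 in KO.

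Cd80, which encodes B7-1, changed little beside its partner Cd86. At 0 h it read 17.7, 15.2, 14.9 and 10.2 CPM in WT and 11.0, 16.1, 16.0 and 12.8 CPM in KO. At 3 h it read 29.3, 26.9, 20.8 and 19.6 CPM in WT and 24.9, 22.5, 26.9 and 20.6 CPM in KO, above all 0 h libraries, a rise of 1.72-fold (0.78 ± 0.16, adjusted p = 0.000126) and 1.68-fold (0.75 ± 0.14, adjusted p = 6.5e-05). It fell from 6 to 12 h, by 0.71 on the log2 scale in WT and by 0.83 in KO. At 24 h it averaged 11.0 ± 2.21 CPM in WT and 10.3 ± 1.21 in KO, below the 0 h means of 14.5 ± 3.12 and 14.0 ± 2.53, with overlapping ranges. The call below 0 h at 24 h in WT (-0.41 ± 0.17, adjusted p = 0.0378) was not made without WT replicate 1, 2 or 3 (adjusted p = 0.0830, 0.126 and 0.297). In KO (-0.45 ± 0.15, adjusted p = 0.00889) it was not made without KO replicate 2 (0.144). A few further calls of Cd80 also depended on a single replicate number, left out at all 5 times. These were above 0 h at 6 h in WT (0.39 ± 0.16, adjusted p = 0.0389), below 0 h at 12 h in KO (-0.36 ± 0.15, adjusted p = 0.0356) and below 3 h at 6 h in WT (-0.40 ± 0.16, adjusted p = 0.0485). The first was not made without WT replicate 2, 3 or 4 (adjusted p = 0.0723, 0.0851 and 0.0894), the second not without KO replicate 2, 3 or 4 (0.352, 0.135 and 0.0643), and the last not without WT replicate 1, 2 or 3 (0.12, 0.240 and 0.0630). At 12 h in WT, where Cd80 was not called (-0.33 ± 0.17, adjusted p = 0.0973), it was called without WT replicate 4 (-0.46, adjusted p = 0.0234). DESeq2 did not make the calls at 24 h in WT (adjusted p = 0.0807), at 12 h in KO (0.118) or from 3 to 6 h in WT (0.0944).

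Cd274, which encodes PD-L1, rose as early as Cd40 and did not come down. At 0 h it read 25.7, 25.8, 25.6 and 28.3 CPM in WT and 48.4, 24.8, 39.4 and 25.8 CPM in KO. At 6 h it read 907, 1088, 925 and 872 CPM in WT and 1039, 1028, 1406 and 1136 CPM in KO. At 24 h it read 1144, 921, 922 and 946 CPM in WT and 1087, 1028, 983 and 1132 CPM in KO. The 24 h rise was 37.7-fold in WT (5.24 ± 0.13, adjusted p = 1.7e-21) and 30.4-fold in KO (4.93 ± 0.17, adjusted p = 8.5e-17). Between 12 and 24 h it was not called in either genotype, while Cd40, Cd86, Icosl and Ciita all fell. In KO a dip from 6 to 12 h was called (-0.37 ± 0.14, adjusted p = 0.0397), but not without KO replicate 2 (0.0700), 3 (0.263) or 4 (0.0592). In WT the same step was not called (-0.14 ± 0.10), and was called without WT replicate 1 (-0.28, adjusted p = 0.0265).

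Icosl, the ligand of ICOS, rose briefly. In WT it read 15.5, 13.8, 11.4 and 9.26 CPM at 0 h, 109, 87.5, 77.6 and 87.3 at 3 h, and 12.9, 11.8, 11.7 and 14.5 at 24 h. In KO it read 8.34, 10.8, 9.58 and 7.13 CPM at 0 h, 47.1, 80.9, 77.3 and 63.5 at 3 h, and 8.03, 10.4, 7.11 and 9.51 at 24 h. It was highest at 3 h in all replicates, 7.39-fold above 0 h in WT (2.89 ± 0.18, adjusted p = 2.7e-12) and 7.33-fold in KO (2.87 ± 0.21, adjusted p = 5.0e-11). By 24 h the difference from 0 h was 0.03 ± 0.21 in WT and -0.05 ± 0.24 in KO, not called in either (adjusted p = 0.918 and 0.859). Some calls of its decline depended on a single replicate number. From 3 to 6 h in WT it fell by 0.46 on the log2 scale (adjusted p = 0.0213), but was not called without WT replicate 2 (0.0978) or 4 (0.0802). From 12 to 24 h in KO it fell by 0.99 (adjusted p = 0.00196), but was not called without KO replicate 3 (-0.60, adjusted p = 0.0517).

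**Figure D2:**
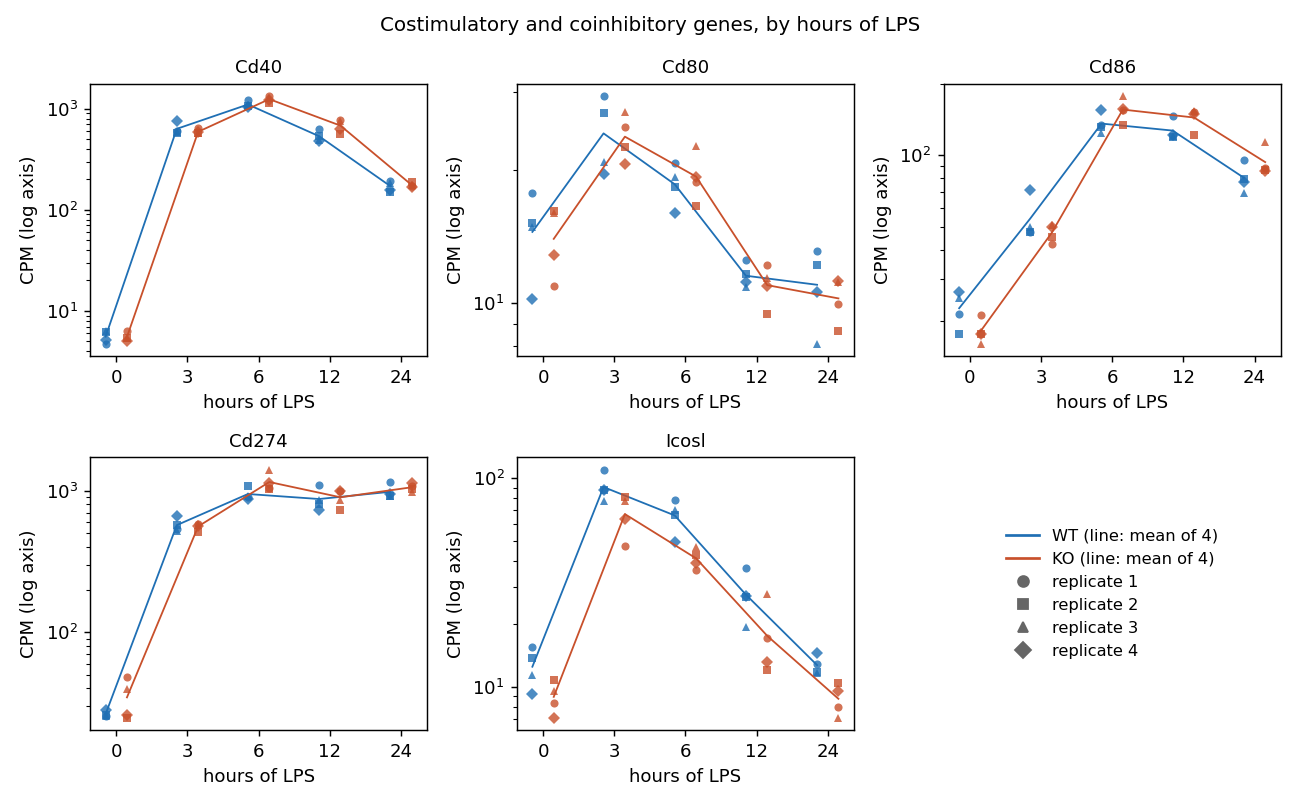
Level (CPM, log axis) of Cd40, Cd80, Cd86, Cd274 and Icosl in each of the 40 libraries against hours of LPS, drawn as for the class II genes. Cd40 and Cd86 have their highest means at 6 h, Cd80 and Icosl at 3 h, and Cd274 stays between 732 and 1406 CPM in every library from 6 h on.

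Counted over the set, 10 of 10 genes were above 0 h at 3 h in WT, where 26.6% of 12151 genes tested rose. At 6 h 10 of 10 rose (31.0% of all genes tested), at 12 h 9 rose (32.3%) and at 24 h 8 rose (34.5%) and 1 fell (35.4%). In KO 9 of 10 rose at 3 h (22.9% of 12037 genes), 10 at 6 h (28.7%), 9 at 12 h (30.7%) with 1 lower (34.0%), and 8 at 24 h (32.8%) with 1 lower (33.0%). The median of the 10 at 6 h was 2.10 on the log2 scale in WT and 2.07 in KO, against -0.09 and -0.11 over all genes tested. These times share the 0 h libraries and so are not separate evidence.

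The steps between neighbouring times separate genes that were still climbing from those already falling. From 3 to 6 h, 6 of 10 rose (20.4% of all genes) and 2 fell (21.9%) in WT, and 6 rose (19.0%) and 1 fell (21.6%) in KO. H2-Aa, H2-Ab1, Cd74, Cd40, Cd86 and Cd274 rose in both genotypes, although Cd74 in KO (1.14 ± 0.34, adjusted p = 0.0120) was not called without KO replicate 1 (adjusted p = 0.0579). The WT fall of Icosl and Cd80 in this step depended on single replicate numbers, as given above. From 6 to 12 h, 4 rose (22.3%) and 3 fell (23.4%) in WT, and 3 rose (22.7%) and 4 fell (22.0%) in KO. The risers in WT were H2-Aa, H2-Ab1, H2-Eb1 and Cd74, whose log2 changes lay between 0.51 and 0.64 and in KO the same 3 chains, at 0.60, 0.61 and 0.87. Cd74 in KO differed by 0.61 ± 0.31 and was not called (adjusted p = 0.124), but in 1 fit of all 40 libraries it was called in KO (0.0461) and not in WT (0.0562), and with a replicate block (0.00381) or no filter on low counts (0.000207) it was called in KO. In KO these 3 calls were not made without KO replicate 1 (adjusted p = 0.137, 0.161 and 0.116), and those of H2-Aa and H2-Ab1 not without KO replicate 3 (0.0919 and 0.109). From 12 to 24 h, 1 rose (19.1%) and 4 fell (20.5%) in WT, and 0 rose (18.1%) and 4 fell (18.8%) in KO. The 4 that fell were Ciita, Cd40, Cd86 and Icosl in both genotypes.

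**Figure D3:**
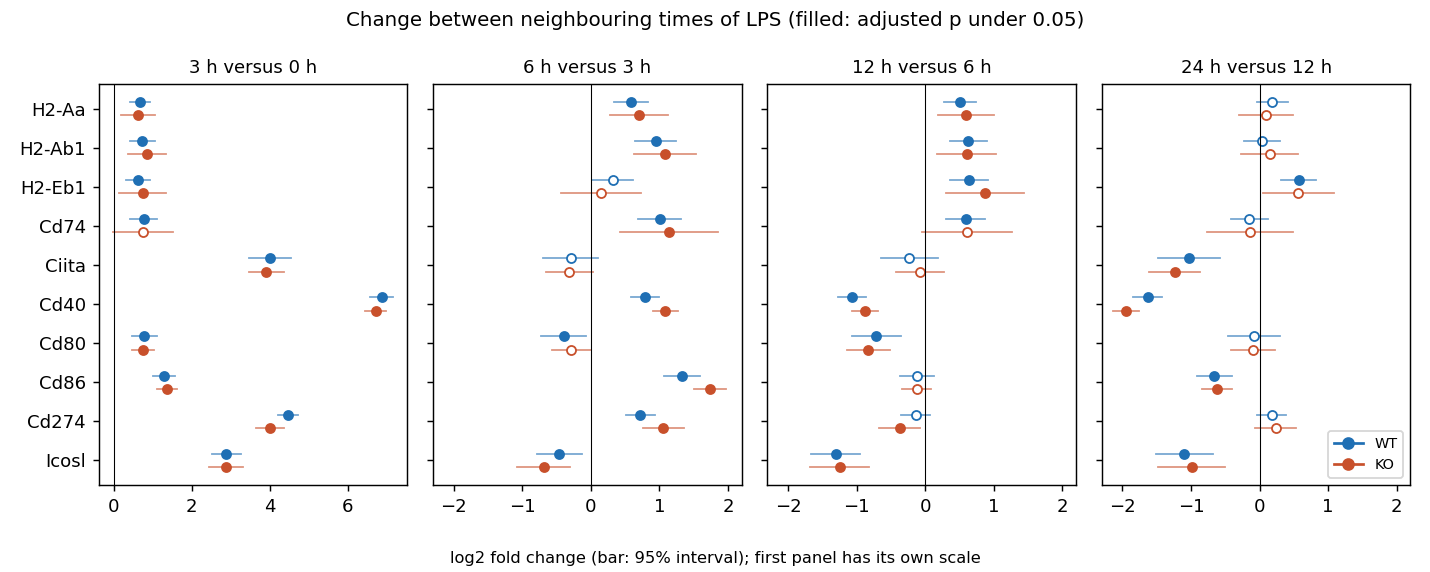
Log2 fold change of each of the 10 genes between neighbouring times, in WT (blue) and KO (orange), with 95% intervals and filled points where the adjusted p was under 0.05. The class II chains lie above 0 up to 12 h, and Ciita, Cd40, Cd86 and Icosl lie below 0 from 12 to 24 h in both genotypes.

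Between genotypes, Icosl at 6 h was the 1 call within the set. At 0 h 0 of 10 genes were called (0% of 11734 genes tested, 0 genes), at 3 h 0 (0.689% of 11035), at 6 h 1 (1.01% of 10518), which was lower in KO (0.171% of all genes), at 12 h 0 (0.0464% of 10783) and at 24 h 0 (0.0809% of 11122). With DESeq2 these counts of the set were the same. At an unadjusted p under 0.05 there were 3, 1, 4, 2 and 1 of 10, beside 7.67%, 11.7%, 12.0%, 7.72% and 7.46% of all genes. The log2 difference, KO over WT, lay below 0 for 8, 10, 6, 7 and 6 of the 10 genes in order of time. The median of the 10 was -0.21, -0.21, -0.12, -0.09 and -0.11, while that of all genes tested was 0.00, 0.01, -0.01, 0.00 and 0.00.

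Icosl was lower in KO at 6 h: the KO libraries read 36.2, 42.8, 46.7 and 39.3 CPM and the WT libraries 78.5, 66.8, 70.2 and 49.2 CPM. Every KO library lay below every WT library, as for 7.33% of all genes in either direction. The difference was -0.70 ± 0.13 on the log2 scale (0.616-fold, 95% interval -0.98 to -0.42, adjusted p = 0.0151). At 24 h, with 8.03 to 10.4 CPM in KO and 11.7 to 14.5 in WT, the ranges were again apart, as for 4.47% of all genes, but the difference was not called (-0.54 ± 0.17, adjusted p = 0.354). At 0, 3 and 12 h the ranges overlapped and the differences were -0.46, -0.46 and -0.65, not called (adjusted p = 0.556, 0.258 and 0.587). The 6 h call was not made without KO replicate 1 (-0.63, adjusted p = 0.0888) or 4 (-0.68, 0.0563), nor without WT replicate 2 (-0.69, 0.0688) or 3 (-0.68, 0.0543). Without both male animals it was -0.88, with an adjusted p of 0.000548, and DESeq2 gave -0.69 with an adjusted p of 0.000713. The response of Icosl to LPS was not called as different between genotypes at any time: at 6 h against 0 h the difference of the 2 changes was -0.24 ± 0.23.

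Several marker levels also differed between genotypes, and their part in the Icosl difference was not tested. At 6 h the 7 macrophage markers summed to 5289 to 5534 CPM in KO and 5703 to 6166 in WT, with no overlap. At 24 h the sums were again apart, at 5362 to 5705 against 5843 to 7433 CPM, and at 0, 3 and 12 h they overlapped. Lyz2, one of them and the locus that carries the Cre, was lower in KO by 0.44 on the log2 scale at 6 h (adjusted p = 0.00752), a call not made in 1 fit of all 40 libraries (0.0728). Lyz2 was also the most abundant of the 7, with a median of 2394 CPM over the 40 libraries against 622 for Itgam, the next. Whether the macrophage sums differ without Lyz2 was not tested. The 8 neutrophil markers, with Ly6g and Retnlg at 0 in 38 of 40 libraries each, summed to 30.4 to 56.6 CPM in KO and 58.7 to 78.1 in WT at 6 h. Their sums were also apart at 3 h (31.4 to 43.4 against 56.2 to 70.6) and 24 h (19.0 to 27.5 against 33.0 to 45.4), and overlapped at 0 and 12 h. S100a8 and S100a9 were the most abundant of that list, with medians of 24.0 and 11.9 CPM over the 40 libraries. No other neutrophil marker passed 4.29 CPM in any library, so the sums describe mainly S100a8 and S100a9. The 10 dendritic cell markers summed to 107 to 124.9 CPM in KO and 67.2 to 126 in WT at 6 h. Their sums also overlapped at 12 and 24 h. They were apart, and higher in KO, at 0 h (61.9 to 93.7 against 31.9 to 46.0) and 3 h (79.2 to 138 against 64.0 to 76.2). Within that list Itgax was higher in KO, at 98.5, 76.3, 81.6 and 75.3 CPM against 54.9, 33.4, 31.8 and 50.7 in WT (0.94 ± 0.17, adjusted p = 0.0260), while Ccl22, Ccl17 and Ccr7 had lower means in KO, at 14.2, 5.66 and 6.68 CPM against 24.7, 9.31 and 8.04, with overlapping ranges. Flt3 reached at most 0.849 CPM in any library. The Itgax call at 6 h was not made without any 1 of the KO replicates (adjusted p from 0.0604 to 0.0808), without WT replicate 2 (0.0688) or without both male animals (0.0764). Before LPS the Itgax ranges were already apart, at 59.4 to 91.9 CPM in KO and 27.6 to 40.9 in WT, as they were at 3, 12 and 24 h. Ranges were apart for 4.47% of all genes at 24 h, and the shares at 0, 3 and 12 h are not given here. At 0 h no gene was called between genotypes.

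**Figure D4:**
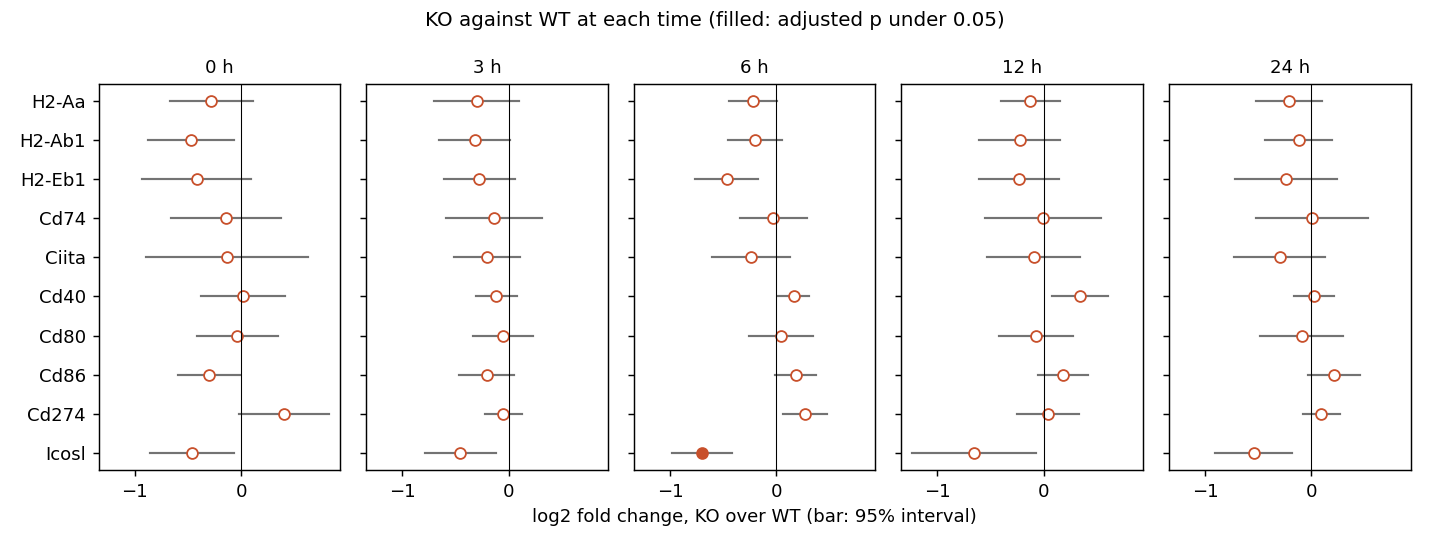
Log2 fold change of KO over WT for each of the 10 genes at each time, with 95% intervals and a filled point where the adjusted p was under 0.05. Icosl at 6 h, at -0.70, is the 1 filled point.

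No class II gene was called between genotypes. H2-Aa, H2-Ab1, H2-Eb1 and Ciita had a KO mean below the WT mean at 5 of 5 times, with log2 differences from -0.30 to -0.13, -0.47 to -0.12, -0.47 to -0.23 and -0.30 to -0.09. Cd74 had a KO mean below the WT mean at 3 of 5 times. These signs are not separate evidence, because the chains moved together. Across times, 38 of 40 libraries also correlated best with their own replicate number. The lowest adjusted p among them was 0.152, for H2-Eb1 at 6 h (-0.47 ± 0.14), where the libraries read 18.1, 18.8, 23.5 and 26.1 CPM in KO and 33.3, 25.4, 28.4 and 30.9 in WT. At 24 h the 95% interval ran from -0.53 to 0.10 for H2-Aa, from -0.44 to 0.19 for H2-Ab1, from -0.71 to 0.24 for H2-Eb1 and from -0.52 to 0.53 for Cd74. A miss of the threshold does not show that the genotypes were alike.

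The KO libraries differed among themselves by replicate number. The summed level of H2-Aa, H2-Ab1, H2-Eb1 and Cd74 at 24 h was 283, 246, 264 and 442 CPM in KO replicates 1 to 4, and 390, 335, 347 and 299 CPM in WT. At 12 h it was 267, 213, 267 and 366 CPM in KO and 376, 312, 292 and 259 in WT. Among the KO libraries, replicate 4 was highest for H2-Aa at 5 of 5 times and for H2-Ab1, H2-Eb1, Cd74 and Ciita at 4 of 5. Replicate 2 was lowest for H2-Aa and H2-Ab1 at 5 of 5. Without KO replicate 4, the 24 h rise in KO was 1.94 for H2-Aa, 2.57 for H2-Ab1, 2.11 for H2-Eb1 and 2.13 for Cd74 on the log2 scale, and all 4 stayed called.

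**Figure D5:**
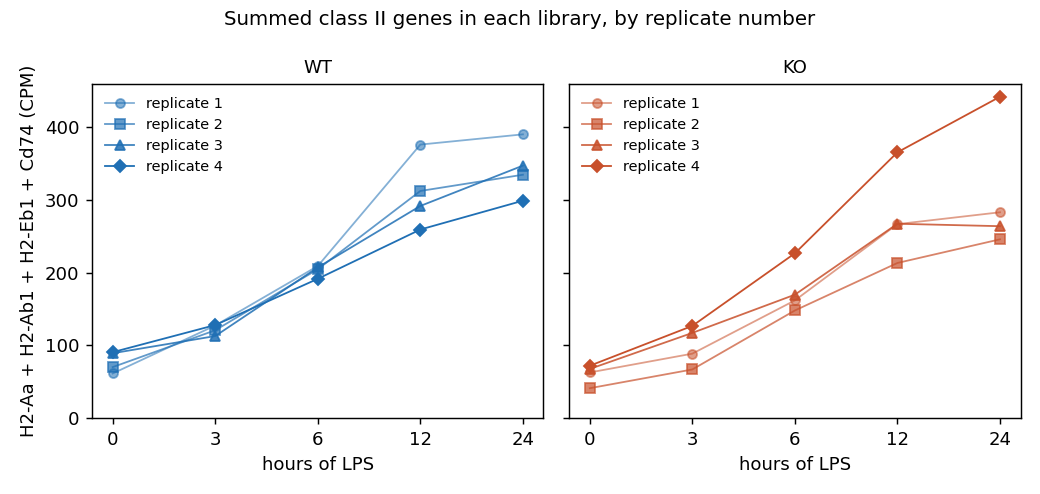
Summed level (CPM) of H2-Aa, H2-Ab1, H2-Eb1 and Cd74 in each library against hours of LPS, a line per replicate number, with WT left and KO right. KO replicate 4 runs above the other KO replicates at all times and reaches 442 CPM at 24 h.

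Whether LPS acted differently in the genotypes was asked of the difference between their changes from 0 h. Of the 10 genes 0 were called at 3, 6, 12 or 24 h by edgeR or by DESeq2. Of all genes edgeR called 0% at 3, 6 and 12 h and 0.00818% at 24 h. Within the set, the unadjusted p was under 0.05 for Cd274 at 3 h (-0.45 ± 0.21, unadjusted p = 0.0482) and for Cd86 at 6, 12 and 24 h. The share of all genes under that unadjusted threshold was not counted, so these genes cannot be said to stand out. For Cd86 the difference of the changes was 0.49 ± 0.16, 0.48 ± 0.17 and 0.51 ± 0.18 on the log2 scale (adjusted p of 0.880 or more at each), larger in KO. These share the 0 h libraries, in which Cd86 averaged 18.1 ± 2.21 CPM in KO and 22.7 ± 4.00 in WT, with overlapping ranges. Directly between genotypes Cd86 was not called at 6, 12 or 24 h (0.18, 0.18 and 0.21; adjusted p = 0.444, 0.756 and 0.710). Of the 10 genes at 12 h, Cd40 had the lowest adjusted p, at 772, 564, 758 and 626 CPM in KO and 634, 535, 491 and 479 in WT (0.34 ± 0.12, adjusted p = 0.481). At 6 h the difference of Cd40 between genotypes was 0.16 ± 0.07, also not called (adjusted p = 0.352).

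Other genes of the pathway were taken from lists made by function. Of 16 genes of class II peptide loading and turnover, 15 were in the table. In WT at 24 h 7 of the 11 tested rose and 1 fell, beside 34.5% and 35.4% of all genes, with a median of 0.65 on the log2 scale against -0.02 for all genes. In KO 6 of 11 rose and 0 fell, beside 32.8% and 33.0%, with a median of 0.59 against -0.01. H2-DMa and H2-DMb1, the chains of the peptide exchanger, rose from 17.9 ± 0.372 to 61.7 ± 5.72 CPM and from 54.1 ± 1.16 to 169 ± 14.5 CPM in WT (1.80 ± 0.10 and 1.66 ± 0.09). In KO their rises were 1.73 ± 0.14 and 1.72 ± 0.11. March1, a ubiquitin ligase that sends class II and CD86 to degradation, rose from 24.2 ± 4.99 to 252 ± 6.69 CPM in WT (3.39 ± 0.19) and from 27.5 ± 7.02 to 274 ± 5.52 in KO (3.31 ± 0.17). Ctss, the protease that trims the invariant chain, rose by 0.99 ± 0.09 in both genotypes.

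Of the 18 genes of class II transcription, 13 rose and 4 fell at 3 h in both genotypes. Of all genes tested, 26.6% rose and 28.0% fell at 3 h in WT, and 22.9% rose and 25.7% fell in KO, which also stand beside the counts at 3 h of the next lists. The median of the class II transcription genes was 0.78 in WT and 0.64 in KO, against -0.05 and -0.04 over all genes. Irf1, an interferon-regulated factor that acts on the Ciita gene, rose from 42.5 ± 3.00 to 1161 ± 59.8 CPM in WT at 3 h (4.81 ± 0.09) and by 4.86 ± 0.13 in KO. Rfx5, a subunit of the X box complex, rose later, by 1.89 ± 0.12 in WT and 1.83 ± 0.15 in KO at 12 h. Of the 10 CD40 signalling genes 9 rose and 1 fell at 3 h in both genotypes, with a median of 1.85 in WT and 1.66 in KO. Traf1, an adaptor of TNF receptor family members, rose from 2.06 ± 0.489 to 129 ± 8.94 CPM in WT (6.00 ± 0.18) and by 6.11 ± 0.16 in KO, and Nfkb2, a subunit of the alternative NF-κB pathway, by 3.52 ± 0.09 and 3.22 ± 0.12. Of 19 other costimulation and adhesion genes, 10 rose and 2 fell at 3 h, of 14 tested in WT and 15 in KO, with a median of 1.90 and 1.93. Icam1, an adhesion ligand of LFA-1, rose by 4.88 ± 0.18 in WT and 4.60 ± 0.12 in KO. From 6 to 12 h Cd83, a marker of activated antigen-presenting cells, fell from 140.4 ± 25.5 to 26.2 ± 3.96 CPM in WT (-2.44 ± 0.13) and from 130.4 ± 18.5 to 29.4 ± 6.10 in KO (-2.15 ± 0.14).

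Between genotypes, calls in these lists came at 6 h, with 1 at 3 h, and most were higher in KO. At 6 h, 2 of 10 loading and turnover genes were higher, and 0 of 10 CD40 signalling genes were called. Of 17 class II transcription genes 2 were higher and 1 lower, and of 13 other costimulation and adhesion genes 1 was higher. Of all 10518 genes tested 106 were called (1.01%) and 18 of these were lower, so most calls of all genes were higher too. The call at 3 h was 1 of 14 genes, beside 0.689% of all genes. Ifi30, the thiol reductase that unfolds antigens in the endosome, was 103 to 129 CPM in KO and 65.3 to 96.2 in WT at 6 h (0.55 ± 0.11, adjusted p = 0.0242). Ctsl, another endosomal protease, was higher by 0.35 ± 0.08 (adjusted p = 0.0340). Socs1, an inhibitor of interferon receptor signalling, was 297 to 362 CPM in KO and 191 to 255 in WT (0.50 ± 0.09, adjusted p = 0.0115). Irf8, a factor of macrophage and dendritic cell identity, was higher by 0.47 ± 0.09 (adjusted p = 0.0177), and Ifngr1, a chain of the interferon-γ receptor, was lower by 0.39, at 73.0 to 84.4 CPM in KO and 96.4 to 116 in WT (adjusted p = 0.0433). Tnfsf15, a TNF family ligand that costimulates T cells, was higher in KO at 3 h (0.35 ± 0.08, adjusted p = 0.0408) and at 6 h, at 316 to 360 CPM against 164 to 266 (0.73 ± 0.13, adjusted p = 0.0204). In all of these the ranges of the genotypes were apart, as for 7.33% of all genes at 6 h in either direction. The share of all genes at 3 h is not given here. Each call was lost without some single library. For Socs1 that was WT replicate 2 alone (adjusted p = 0.0505), and for Irf8 KO replicate 1 or 3 or WT replicate 2 or 3 (0.0630 to 0.0937). For Ifi30 it was KO replicate 1, 2 or 3 or WT replicate 2 or 3 (0.0742 to 0.101), and for Ctsl the same libraries or WT replicate 4 (0.0534 to 0.135). For Tnfsf15 at 6 h it was any KO replicate or WT replicate 2 or 3 (0.0508 to 0.0889), and at 3 h KO replicate 1, 3 or 4 or WT replicate 1, 2 or 3 (0.0584 to 0.168). For Ifngr1 it was any library other than WT replicate 1 (0.0522 to 0.160). With a replicate block the calls of Ifi30 (0.0601), Ifngr1 (0.0762) and Tnfsf15 at 3 h (0.133) were not made. In these fits the block joined KO and WT libraries of the same number, a pairing that the labels do not state. Without both male animals those of Ifi30 (0.0966), Ctsl (0.191), Irf8 (0.0536), Ifngr1 (0.208) and Tnfsf15 at 3 h (0.0587) were not made, and in 1 fit of all 40 libraries those of Ifi30 (0.0873), Socs1 (0.0873), Ctsl (0.153) and Tnfsf15 at 3 h (0.460) were not. No gene of the 4 lists was called at 0, 12 or 24 h.

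The genes whose log2(CPM + 1) followed each member most closely over the 40 libraries, among the 9160 genes that averaged 5 CPM or more, differed between the groups of the set. H2-Aa was nearest to Cst7 (Pearson r = 0.949), Selenow (0.948) and Clec4a1 (0.947), and H2-Ab1 to Selenow (0.960), Cst7 (0.958) and Fyb (0.958). H2-Eb1 was nearest to Lst1 (0.917), Ptgir (0.916) and Acp2 (0.914), and Cd74 to Prdx2 (0.960), Selenow (0.954) and Fcer1g (0.949). Ciita was nearest to Nfkbie (0.976), an inhibitor of NF-κB, Marcksl1 (0.969) and Nod2 (0.969), a receptor for bacterial cell wall. Cd40 was nearest to Igtp (0.995), an interferon-induced GTPase, Trim30c (0.992) and Socs3 (0.992), and Cd274 to Tnfrsf1b (0.993), Cxcl16 (0.993) and Ifi204 (0.990). Cd86 was nearest to Ctsc (0.984), Milr1 (0.981) and Serpina3g (0.979), and Cd80 to Adgrl2 (0.922), Atp2b4 (0.918) and Sptan1 (0.918). Icosl was nearest to Tlr2 (0.959), the receptor for bacterial lipopeptides, Wdr59 (0.948) and Tbc1d1 (0.947). With Spearman's rho in place of r, the first gene was still Cst7 for H2-Aa (0.957), Nfkbie for Ciita (0.908) and Tlr2 for Icosl (0.937), and another gene for each of the remaining members.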

How the data were processed

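Expected counts per gene, not normalized and all whole numbers as deposited by the authors, were given for 57010 identifiers in 40 libraries. The submitters' processing notes name GRCm39 and, as tools, RSEM 1.3.3, UMI-tools 1.1.2, STAR 2.7.10a, cutadapt 3.7 and FastQC 0.11.9; the sources used here do not state their settings, annotation or handling of strand, so overlapping genes and close copies may share tags. Symbols came from GENCODE vM21 and promoters from RefSeq (GRCm38.p6), not the build of the counts. The genes described and all lists were chosen with earlier results of these data known.

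Counts were tested with edgeR 4.0.16 in R 4.3.3. Genes were kept by filterByExpr with a minimum count of 10, scaled by TMM, and tested with the robust quasi-likelihood method; p-values were adjusted by Benjamini and Hochberg over every gene tested, and an adjusted p under 0.05 is a call. KO and WT were compared within each time, times within each genotype, and the difference of responses over 2 times and both genotypes. CPM use TMM factors over all 40 libraries. The SE is the log2 fold change divided by the square root of F, and 95% intervals are unadjusted. Library totals of 3615155 to 6829303 limit Ciita at 0 h to between 6 and 14 counts in a WT library. The labels call the libraries biological replicates. The test was first checked on simulated data. Named are the 10 genes, the 3 with the highest Pearson r to each, and up to 4 called genes of each list by size of change. Alternatives were other size factors, filters and fits, DESeq2 1.42.0, a replicate block and leaving out replicates. A replicate left out was taken out at every time of the fit: 1 library in a fit of 1 time, 5 in a fit of 1 genotype.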

Additional observations from a re-analysis of the deposited data

Results flagged for a closer look

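A library was picked out when its gap to the nearest of the other 3 of its group, as a share of the group's range, exceeded Dixon's 95% critical value for 4 samples. If values were normal, chance alone would pick out about 1 in 20 combinations of gene and group. The combinations share libraries and the class II genes moved together, so a count cannot be weighed against that rate. A library was picked out in 13 of the 100 combinations. Of these, 4 were KO replicate 4 standing high in class II genes: H2-Aa at 24 h (129 CPM, the others 76.7 to 85.2), H2-Eb1 at 24 h (90.2, the others 44.7 to 51.4), Ciita at 24 h (10.5, the others 6.85 to 7.33) and Cd74 at 6 h (42.0, the others 25.9 to 27.1). WT replicate 1 stood high at 12 h for H2-Aa (111 CPM, the others 88.7 to 92.2) and Cd86 (146, the others at or below 122) and at 24 h for Cd274 (1144, the others 921 to 946), and low for Ciita at 0 h (0.83, the others 2.07 to 2.32). WT replicate 4 stood high at 3 h for Cd40 (763 CPM, the others 573 to 599) and Cd86 (71.6, the others from 47.5 up), and at 0 h for Cd274 (28.3, the others 25.6 to 25.8). Cd86 in KO was low in replicate 2 at 12 h (121 CPM, the others 149 to 154) and high in replicate 3 at 24 h (114, the others 86.1 to 88.1).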

How the results depend on the processing

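Between genotypes, the count of called genes in the set moved from 0 to 1 at 0, 3 and 12 h (H2-Ab1, then Icosl at both) and from 1 to 2 at 6 h when no filter on low counts was used, and to 0 at 6 h in 1 fit of all 40 libraries (Icosl -0.68, adjusted p = 0.0678). Leaving out a single replicate number gave 0 to 1 at 6 h, and 4 to 6 called genes, against 7, for KO 12 h against 6 h. The cause was not tested. No direction reversed among called values. Single named genes stayed on their side of the threshold in 1012 values against 0 h and lost the call in 22; for the other steps these counts were 421 and 19, and between genotypes 160 and 62. Calls of the 10 genes gained under some alternative numbered 6 against 0 h, 8 between other steps and 4 between genotypes. Over all genes the KO against WT calls ranged widely: without the filter 177, 359, 344, 158 and 163 by time, with DESeq2 27, 147, 183, 57 and 56, in 1 fit of all libraries 9, 35, 125 and 32 at 0, 3, 12 and 24 h, against 0, 76, 106, 5 and 9; leaving out a library gave 0 to 18, 18 to 160, 37 to 148, 0 to 18 and 0 to 20. For the difference of responses the counts were at most 40 without the filter and 11 with DESeq2, against 0 to 1.

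Replicate numbers are not stated to pair libraries, and in fits of KO against WT the replicate block joined libraries of different animals that share a number. Deviations of libraries with the same number correlated above 0.1 in 64 of 80 pairs across times within a genotype (-0.15 to 0.61), and in 2 of 20 pairs between genotypes, while 38 of 40 libraries correlated best with their own number across times. With a replicate block Icosl at 6 h was -0.69 (adjusted p = 0.0250), no call among the 10 genes was lost, and Cd74 in KO at 3 h (0.70, adjusted p = 0.00394) and 12 against 6 h (0.59, 0.00381), H2-Eb1 in KO at 24 against 12 h (0.54, 0.00224) and in WT at 6 against 3 h (0.31, 0.0378) and Cd80 in WT at 12 h (-0.30, 0.0499) were added; over all genes KO against WT calls were 5, 26, 0 and 0 at 0, 3, 12 and 24 h. Depth limits Ciita at 0 h, and the shallow levels of Icosl and Cd80.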
